A study of Mus musculus with 4 samples.

Results

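The genes described here are the enzymes that build cholesterol and fatty acids, together with the proteins that sense and carry sterols. They were chosen by name: 21 genes form a sterol branch and 10 a fatty acid branch, 31 in all of 27597 names on the array. Every one of the 31 was found, 2 of them under older symbols (Msmo1 as Sc4mol and Me1 as Mod1), and 61 probes carried them. The cells were OP9, a mouse bone marrow stromal line. The retroviral vector LZRS-IRES-GFP was carried by both groups, empty in the 2 Control samples and with the gene for Wnt3A, a secreted signalling protein, in the 2 Wnt3A samples. Vector and GFP marker were thus shared, and the comparison asks what differs with the added Wnt3A gene. Whether the cells of a sample were a pool or a clone is not given in the sources used here. Replicates are labelled as separate without mention of separate cultures, and p-values therefore cover only the variation among these 4 samples, which may be technical.

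Cholesterol is assembled from acetyl units through mevalonate, then farnesyl diphosphate and squalene, which is folded into lanosterol and trimmed to cholesterol. When membrane sterol is low, the chaperone SCAP carries the transcription factors of the SREBP family to the Golgi, where they are cut and released to the nucleus. There they act with NF-Y and Sp1 on the promoters of genes of both branches, while INSIG proteins hold the complex back when sterol is plentiful. Fatty acids are built from cytosolic acetyl units and NADPH, then lengthened by elongases and unsaturated by desaturases, and in cells that become adipocytes this synthesis feeds stored fat.

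RefSeq promoters (build GRCm38.p6, 250 bases before to 50 bases after a start) were at hand for 24 of the 31 genes; those of Fdps, Fdft1, Sqle, Stard4, Scd1, Scd2 and Fads1 were not in the table. The 160 bases before the start are shown for 6 sterol genes, to set the letters searched beside genes of both directions: Hmgcs1, Idi1, Lss and Msmo1 were lower in Wnt3A without overlap, and Cyp51 and Ebp higher. The windows are chr13:119690191-119690350 (+ strand) for Hmgcs1, chr13:8885446-8885605 (+ strand) for Idi1, chr10:76531445-76531604 (+ strand) for Lss, chr5:4104698-4104857 (- strand) for Cyp51, chr8:64733579-64733738 (- strand) for Msmo1 and chrX:8193513-8193672 (- strand) for Ebp. Capitals mark TCACNCCAC, a sterol regulatory element consensus, the NF-Y box CCAAT and the Sp1 box GGGCGG, each on either strand.
Hmgcs1: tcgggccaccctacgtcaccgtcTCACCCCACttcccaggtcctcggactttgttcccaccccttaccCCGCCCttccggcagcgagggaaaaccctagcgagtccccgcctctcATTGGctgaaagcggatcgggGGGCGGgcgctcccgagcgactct
Idi1: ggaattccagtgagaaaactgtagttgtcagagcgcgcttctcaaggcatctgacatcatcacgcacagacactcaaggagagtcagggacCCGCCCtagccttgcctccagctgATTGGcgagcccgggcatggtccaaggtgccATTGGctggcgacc
Lss: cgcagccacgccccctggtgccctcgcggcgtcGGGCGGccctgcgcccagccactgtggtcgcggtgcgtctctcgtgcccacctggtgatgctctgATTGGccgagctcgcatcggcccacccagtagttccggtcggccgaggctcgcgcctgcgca
Cyp51: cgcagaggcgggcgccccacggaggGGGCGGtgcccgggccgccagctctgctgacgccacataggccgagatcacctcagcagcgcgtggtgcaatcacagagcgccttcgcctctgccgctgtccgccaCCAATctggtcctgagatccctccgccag
Msmo1: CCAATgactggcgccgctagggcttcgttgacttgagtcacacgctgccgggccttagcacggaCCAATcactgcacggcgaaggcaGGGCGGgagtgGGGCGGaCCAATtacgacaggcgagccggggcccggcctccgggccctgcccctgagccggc
Ebp: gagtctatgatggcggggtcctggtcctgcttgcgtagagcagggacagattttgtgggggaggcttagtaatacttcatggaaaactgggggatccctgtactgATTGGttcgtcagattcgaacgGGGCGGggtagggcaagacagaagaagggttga

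All 6 windows hold an NF-Y box and an Sp1 box, and that of Hmgcs1 alone holds the sterol element. Over the full promoters, CCAAT was found in 20 of 24 genes (83.3%), against 37.4% of all 32851 promoters and 41.1% of all 27025 genes in the table. GGGCGG was found in 19 of 24 genes (79.2%), against 35.7% of promoters and 38.2% of genes. TCACNCCAC was found in 1 of 24 (4.17%), against 1.24% of promoters and 1.44% of genes. The 3 motifs do not overlap each other in the windows shown. A match describes letters in this window and shows neither binding nor its absence.

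RNA was measured on 1-colour Agilent arrays, 1 per sample, after amplification by global PCR, and the 2 arrays a group limit the precision. Values are given as relative intensity, the deposited intensity divided by the 75th percentile of its array, and differences as log2 of Wnt3A over Control ± SE (n = 2 arrays per group throughout), with p-values from limma, adjusted by Benjamini-Hochberg over all tested probes. Each group's values are in the order replicate 1, replicate 2. In the deposited table arrays of 1 group were closer in rank (Spearman rho over spots 0.950 and 0.954) than arrays of different groups (0.924 to 0.929). The deposited scanner files did not order by group (rho 0.695 to 0.840), and all 4 table columns were closest to the scanner file of Control replicate 2. The scanner files may therefore hold other arrays than the table, so their intensities serve as an alternative. Their flags nevertheless set the factor of the detection floor used for the table, and so the choice of probes tested. The probe for Wnt3a itself, at transcript position 2599, lay above the detection floor on 1 Wnt3A array and on 0 Control arrays, and whether the insert reaches this position is not stated, so it does not check the labels. All 10 stromal markers listed lay above the floor in at least 1 group.

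None of the 31 genes rose or fell at a limma adjusted p under 0.05, where 0.402% of the 22859 genes tested rose and 0.241% fell. The smallest adjusted p was 0.243, for Acly, and the largest 0.997. At an unadjusted p under 0.05 there were 3 genes higher and 3 lower in Wnt3A (6 of 31, 19.4%), where 6.31% of all genes were higher and 6.34% lower. The arrays of the groups did not overlap for 9 genes that were higher and 6 that were lower in Wnt3A, 48.4% of the 31, where 21.5% of all genes were higher and 23.7% lower without overlap, 45.2% together. Differences past 1 (log2) in size were seen in 4 of 31 genes (12.9%) and in 20.1% of all genes.

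The members' differences ran from -1.26 (Msmo1) to 1.06 (Ebp), with a median size of 0.44 against 0.41 over all genes. The smallest difference past the threshold over all genes was 3.10 in size, so no gene with a difference as small as the members' was called. With 2 arrays in each group the smallest two-sided p of an exact permutation test is 0.333. With any 1 array left out, 0 of all genes tested passed the adjusted threshold (2281 to 2822 at an unadjusted p under 0.05), so every call of a gene outside the 31 given below was lost without each of the 4 arrays. In bulk RNA, fewer cells of a type and less RNA per cell cannot be told apart.

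**Figure D1:**
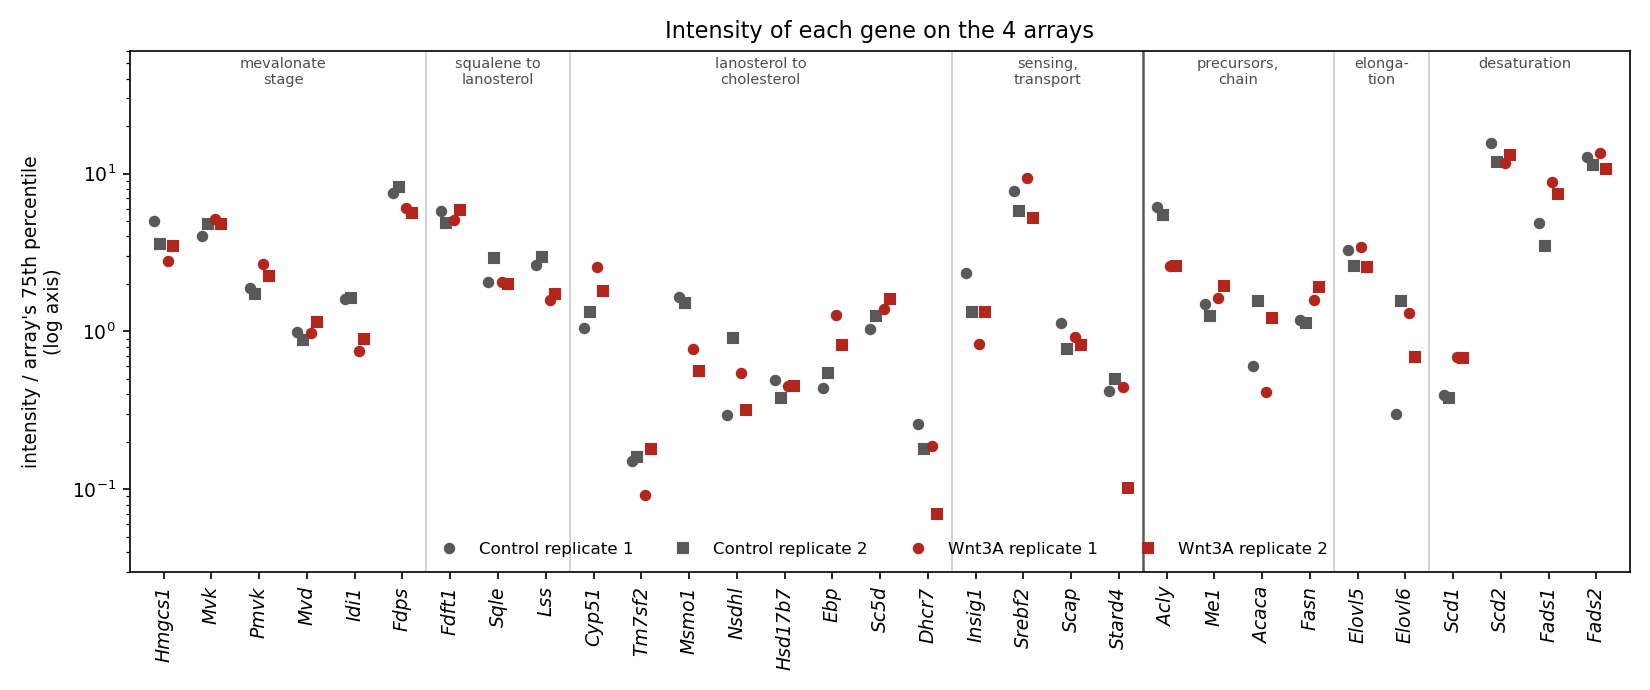
Relative intensity (log axis, intensity divided by the array's 75th percentile) of each gene's main probe on the 4 arrays, Control in grey and Wnt3A in red, circles for replicate 1 and squares for replicate 2. Both Wnt3A arrays lie below both Control arrays for 6 genes (Hmgcs1, Idi1, Fdps, Lss, Msmo1 and Acly). They lie above them for 9 (Mvk, Pmvk, Cyp51, Ebp, Sc5d, Fasn, Scd1, Fads1 and Me1). Together these are 48.4% of the 31 genes, where 45.2% of all genes did not overlap. Levels of different genes come from different probes and are not comparable.

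The sterol branch lay on both sides of 0, with 9 genes positive and 12 negative, where 49% of all genes were positive. The median difference was -0.27, against -0.01 over all genes. Its arrays did not overlap for 5 genes that were higher (Mvk, Pmvk, Cyp51, Ebp and Sc5d) and 5 that were lower (Hmgcs1, Idi1, Fdps, Lss and Msmo1). Together these were 10 of 21 (47.6%), near the 45.2% of all genes. When the probes of each gene were averaged, 2 were higher and 8 lower without overlap, where 22.0% of all genes were higher and 23.8% lower. Without Wnt3A replicate 2 the median was -0.05 and without Control replicate 2 it was -0.15.

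In the mevalonate stage, 3 of 6 genes were positive and 3 negative. Idi1, the isomerase that makes the second isoprenoid building block, had relative intensities of 1.61 and 1.62 in Control and 0.75 and 0.890 in Wnt3A. Both Wnt3A arrays lay below both Control arrays, a difference of -0.98 ± 0.31 (adjusted p = 0.306), with a 95% interval of -1.81 to -0.16 and an unadjusted p of 0.0295. Its other probe had a difference of -1.14 ± 0.86 (adjusted p = 0.656) with arrays that overlapped. The array annotation places both Idi1 probes on mm8 chromosome 2, while the RefSeq promoter of the gene lies on chromosome 13, so the target of the probes could not be checked.

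Hmgcs1, the synthase that forms HMG-CoA, read 5.01 and 3.56 in Control and 2.81 and 3.46 in Wnt3A. The Wnt3A arrays were lower without overlap, by a narrow margin between Control replicate 2 and Wnt3A replicate 2, and the difference was -0.44 ± 0.35 (adjusted p = 0.681). The Hmgcs1 difference ran from -0.68 to -0.19 with each array left out in turn. The other Hmgcs1 probes gave -0.21 and -1.36. Fdps, which makes farnesyl diphosphate, was lower on both Wnt3A arrays in both of its probes, with 7.51 and 8.17 in Control and 6.03 and 5.66 in Wnt3A for the main probe and a difference of -0.42 ± 0.30 (adjusted p = 0.631).

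Mvk, mevalonate kinase, read 4.02 and 4.77 in Control and 5.13 and 4.77 in Wnt3A, so that the groups all but touched, with a difference of 0.18 ± 0.31 (adjusted p = 0.866). Mvd, the decarboxylase that follows, overlapped between groups and had a difference of 0.17 ± 0.31 (adjusted p = 0.870). Pmvk, the kinase between them, gave opposite answers from probes at adjoining transcript positions. The probe at position 799 read 1.89 and 1.73 in Control and 2.67 and 2.24 in Wnt3A, a difference of 0.44 ± 0.31 (adjusted p = 0.635). The probe at position 739 read 2.36 and 1.76 in Control and 1.19 and 1.46 in Wnt3A, a difference of -0.63 ± 0.34 (adjusted p = 0.535). Each is free of overlap, so no direction can be given for Pmvk.

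From squalene to lanosterol, 1 of 3 genes was positive and 2 were negative. Lss, the cyclase that folds oxidised squalene into lanosterol, read 2.64 and 2.98 in Control and 1.59 and 1.72 in Wnt3A. Both Wnt3A arrays were lower, with a difference of -0.76 ± 0.30 (adjusted p = 0.398) and a 95% interval of -1.58 to 0.06. Its other 2 probes gave -0.98 and -0.64, also lower without overlap. Fdft1, the squalene synthase, had a difference of 0.04 ± 0.32 (adjusted p = 0.977), and Sqle, the squalene epoxidase, one of -0.27 ± 0.34 (adjusted p = 0.806). The arrays overlapped for both, and Wnt3A replicate 1 and Control replicate 1 were level at 2.05 for Sqle, whose difference was -0.02 without Control replicate 2 and -0.52 without Control replicate 1.

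The steps from lanosterol to cholesterol had 4 genes positive and 4 negative, and held the extremes of the branch in both directions. Cyp51, the demethylase that acts on lanosterol first, read 1.05 and 1.33 in Control and 2.57 and 1.79 in Wnt3A at mm8 chromosome 5, 4098039 to 4098445. Both Wnt3A arrays were higher, with a difference of 0.86 ± 0.36 (adjusted p = 0.423). The probe at transcript position 3496 read 0.186 and 0.208 in Control and 0.499 and 0.521 in Wnt3A. Its difference was 1.37 ± 0.30 (adjusted p = 0.187), the smallest adjusted p of any member probe. All 3 Cyp51 probes were higher in Wnt3A without overlap. In the scanner files the Cyp51 difference was -0.32 ± 1.42, an error wider than the difference.

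Msmo1, the oxidase that removes methyl groups later in the chain, lay the other way. Its probe, at mm8 chromosome 8, 67610377 to 67610436, read 1.65 and 1.51 in Control and 0.777 and 0.560 in Wnt3A. The difference was -1.26 ± 0.34 (adjusted p = 0.25), with a 95% interval of -2.17 to -0.34 and an unadjusted p of 0.0182. Ebp, the isomerase that moves the ring double bond, was higher, with 0.439 and 0.544 in Control and 1.27 and 0.815 in Wnt3A at mm8 chromosome X, 7342296 to 7342355. The difference was 1.06 ± 0.38 (adjusted p = 0.362), with a 95% interval of 0.02 to 2.09. Msmo1 and Ebp rest on 1 probe each. Cyp51, Msmo1 and Ebp, which act on the same chain of sterols, thus lay on both sides of 0, and none passed the adjusted threshold. In the scanner files Ebp gave -1.08 ± 1.42.

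Sc5d, the desaturase of the late steps, read 1.04 and 1.26 in Control and 1.39 and 1.61 in Wnt3A, a difference of 0.39 ± 0.32 (adjusted p = 0.683). Its other probe gave -0.46 with arrays that overlapped. The sterol reductases Tm7sf2 and Dhcr7, the dehydrogenase Nsdhl and the keto reductase Hsd17b7 overlapped between groups in their main probes, with differences of -0.27, -0.92, -0.32 and 0.07. Dhcr7 read 0.260 and 0.181 in Control and 0.188 and 0.0701 in Wnt3A, and its difference was -0.21 without Wnt3A replicate 2 and -1.63 without Wnt3A replicate 1. The other Dhcr7 probe gave -0.41, lower in Wnt3A without overlap. Nsdhl had 4 probes. Of these, 1 was lower without overlap (-1.23) and 1 higher without overlap (0.78). The higher probe is annotated to another transcript than the other Nsdhl probes, unlike the Pmvk pair. It read 0.0953 and 0.112 in Control and 0.196 and 0.160 in Wnt3A.

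The genes that sense or carry sterols overlapped between groups in all 4 main probes. Srebf2, which encodes the sterol-regulated SREBP, read 7.79 and 5.77 in Control and 9.38 and 5.26 in Wnt3A, and the Wnt3A arrays were both the highest and the lowest. Its difference was 0.07 ± 0.44 (adjusted p = 0.973). The other Srebf2 probes gave 0.005 and -0.19 with arrays that overlapped, and -0.37, lower in Wnt3A without overlap. Scap, the escort of SREBP, had a difference of -0.11 ± 0.36 (adjusted p = 0.935). Insig1, which retains that complex and is itself a target of SREBP, read 2.35 and 1.33 in Control and 0.830 and 1.33 in Wnt3A. Control replicate 1 was the highest and Wnt3A replicate 1 the lowest, and the difference was -0.75 ± 0.47 (adjusted p = 0.589). With each array left out in turn the Insig1 difference ran from -1.16 to -0.34. Stard4, a soluble sterol carrier, read 0.421 and 0.499 in Control and 0.444 and 0.102 in Wnt3A. Its difference of -1.11 ± 0.79 (adjusted p = 0.634) rested on Wnt3A replicate 2 and was -0.05 without it.

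**Figure D2:**
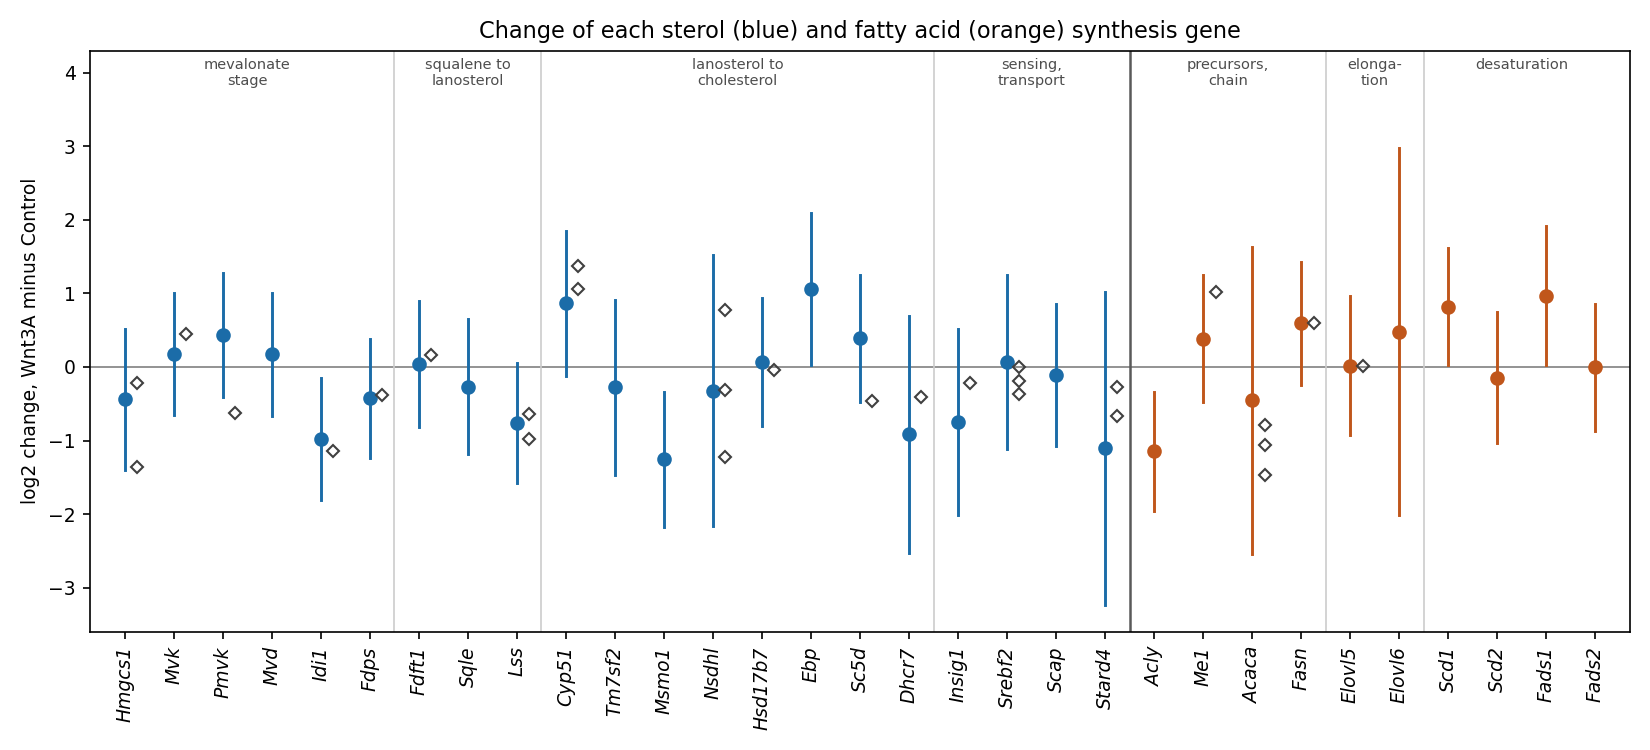
log2 difference (Wnt3A minus Control) of each gene, sterol branch in blue and fatty acid branch in orange, with filled points for the main probe, bars for its 95% interval and open diamonds for the gene's other tested probes. Genes of one stage lie on both sides of 0, as with Cyp51 at 0.86 and Msmo1 at -1.26, and the probes of Pmvk and Nsdhl fall on both sides of 0.

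The fatty acid branch had 6 genes positive and 4 negative and a median difference of 0.20. The arrays did not overlap for 4 genes that were higher (Fasn, Scd1, Fads1 and Me1) and 1 that was lower (Acly), 5 of 10 (50%), near the 45.2% of all genes. Its median was 0.13 without Control replicate 1 and 0.17 to 0.25 without each of the other arrays. On the scanner values it was -0.32, on the other side of 0, where the median over all genes was -0.12. Adipocyte markers moved with the groups: 10 of 12 listed were measured (Lep and Pck1 lay under the floor on every array), all 10 were negative, 3 fell, and their summed relative intensity was 194.0 and 223.8 in Control and 25.8 and 18.2 in Wnt3A. Fabp4 alone carried most of each sum, at 153.7 and 176.7 in Control and 21.7 and 14.2 in Wnt3A. Cidec and Retn overlapped between groups. The part of the adipocyte markers in the values of this branch was not tested.

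Acly, the lyase that supplies cytosolic acetyl-CoA to both branches, read 6.11 and 5.44 in Control and 2.61 and 2.60 in Wnt3A at mm8 chromosome 11, 100293293 to 100293351. The arrays of each group lay close together and far from the other group. The difference was -1.15 ± 0.30 (adjusted p = 0.243), with a 95% interval of -1.96 to -0.33 and an unadjusted p of 0.0165, and it ran from -1.23 to -1.06 with each array left out in turn. The scanner files gave 0.32. A further Acly probe was above the floor on 1 Control array only and was not tested.

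Acaca, the carboxylase that commits acetyl-CoA to fatty acids, had 4 probes, all negative. The main probe overlapped between groups (0.60 and 1.56 in Control and 0.411 and 1.22 in Wnt3A), with a difference of -0.45 ± 0.77 (adjusted p = 0.861). The other 3 were lower in Wnt3A without overlap. Of these, the probe at transcript position 8237 read 0.871 and 1.30 in Control and 0.404 and 0.368 in Wnt3A, a difference of -1.47 ± 0.36 (adjusted p = 0.219). The brightest probe was thus the one that overlapped, and its error was wider than that of the probe at 8237.

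Fasn, the synthase that builds the chain, lay the other way from Acly and Acaca. It read 1.18 and 1.13 in Control and 1.58 and 1.92 in Wnt3A, a difference of 0.60 ± 0.31 (adjusted p = 0.515), and its other probe gave 0.60 with arrays that overlapped. Me1, malic enzyme, which supplies NADPH, read 1.49 and 1.25 in Control and 1.63 and 1.94 in Wnt3A, a difference of 0.38 ± 0.32 (adjusted p = 0.687). Its other probe read 1.17 and 0.953 in Control and 2.00 and 2.28 in Wnt3A, a difference of 1.02 ± 0.32 (adjusted p = 0.306). Both Me1 probes were higher in Wnt3A without overlap, while the scanner values gave -1.41 for Me1 and -0.92 for Fasn.

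Elovl5 and Elovl6, the elongases among the 31 genes, overlapped between groups. Elovl5 had a difference of 0.02 ± 0.35 (adjusted p = 0.991). Elovl6 read 0.298 and 1.56 in Control and 1.32 and 0.689 in Wnt3A, so that both extremes were Control arrays, and its difference was 0.48 ± 0.92 (adjusted p = 0.879).

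Of the desaturases, Scd1 and Fads1 were higher in Wnt3A while Scd2 and Fads2 overlapped. Scd1, which places the first double bond in saturated chains, read 0.394 and 0.379 in Control and 0.688 and 0.679 in Wnt3A. The arrays within each group nearly coincided, and the difference was 0.82 ± 0.30 (adjusted p = 0.360). Scd2, its paralog, read 15.6 and 11.9 in Control and 11.7 and 13.0 in Wnt3A, a difference of -0.14 ± 0.33 (adjusted p = 0.901). Binding of 1 paralog to the probe of the other was not tested.

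Fads1, a desaturase of polyunsaturated chains, read 4.88 and 3.49 in Control and 8.81 and 7.41 in Wnt3A at mm8 chromosome 19, 10263085 to 10263144, and both Wnt3A arrays were higher. The difference was 0.97 ± 0.35 (adjusted p = 0.360), with a 95% interval of 0.03 to 1.91. Fads2, the neighbouring desaturase of the same pathway, read 12.8 and 11.3 in Control and 13.4 and 10.7 in Wnt3A, a difference of -0.01 ± 0.32 (adjusted p = 0.997). The differences between Scd1 and Scd2 and between Fads1 and Fads2 were not tested.

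**Figure D3:**
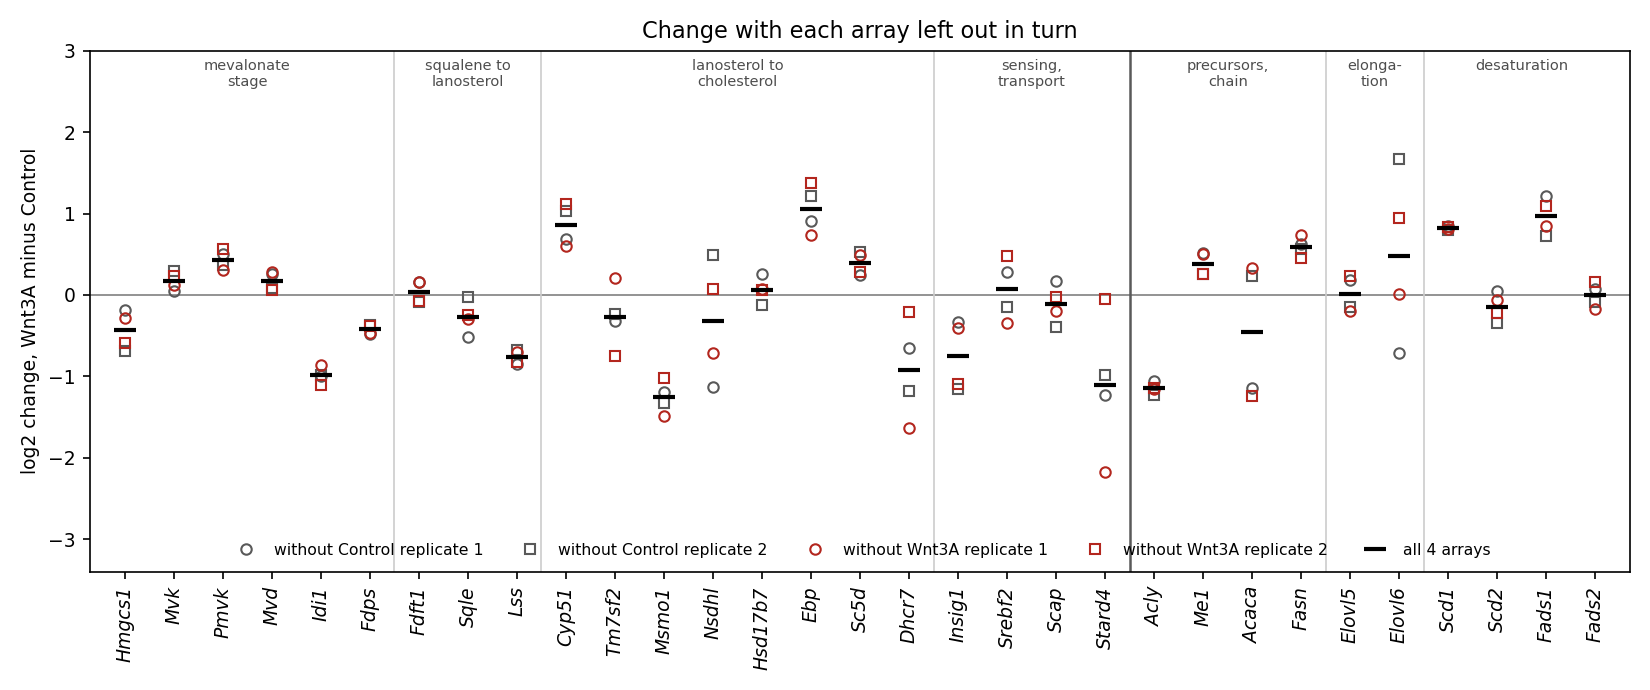
log2 difference of each gene with all 4 arrays (black bar) and with each array left out in turn (grey for Control, red for Wnt3A, circles for replicate 1 and squares for replicate 2). The marks of Scd1, Lss, Acly and Idi1 stay close together, while those of Elovl6 run from -0.71 to 1.68 and those of Stard4 from -2.17 to -0.05.

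Probes of 1 gene did not always agree in sign. Of the 19 members with more than 1 tested probe, 14 had all probes on the same side of 0 and 5 had probes on both sides (Pmvk, Nsdhl, Hsd17b7, Sc5d and Srebf2), and 12 members had 1 tested probe. Of the 61 probes, 60 lay above the floor on all 4 arrays. Over the 60, 13 were higher and 17 lower in Wnt3A without overlap, where 22.2% of all probes were higher and 22.9% lower, 45.1% together. At an unadjusted p under 0.05 there were 5 higher and 5 lower, where 6.95% of all probes were higher and 6.54% lower. Differences past 1 (log2) were seen in 12 of the 60, and in 22.3% of all probes. None passed the adjusted threshold, which 0.424% of probes passed upward and 0.255% downward.

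Among 38 other enzymes and regulators of the pathway, all measured, 0 rose and 0 fell, with 12 positive, 26 negative and a median of -0.28. Without overlap, 6 were higher and 17 lower, where 21.5% of all genes were higher and 23.7% lower. At an unadjusted p under 0.05 there were 2 higher and 3 lower, 5 of 38 (13.2%), near the 12.7% of all genes. The 3 genes with the smallest p were G6pdx, Idh1 and Acacb. G6pdx, which makes NADPH from glucose 6-phosphate, read 17.8 and 21.4 in Control and 5.19 and 5.13 in Wnt3A, a difference of -1.92 ± 0.31 (adjusted p = 0.116). Idh1, another source of NADPH, read 4.38 and 4.13 in Control and 1.32 and 0.922 in Wnt3A, a difference of -1.95 ± 0.35 (adjusted p = 0.134). Me1, whose enzyme supplies the same cofactor, was positive, as given above. Acacb, the mitochondrial counterpart of Acaca, read 0.336 and 0.456 in Control and 1.24 and 1.21 in Wnt3A, a difference of 1.64 ± 0.33 (adjusted p = 0.165), but its other probe gave -0.89.

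Of 20 genes for cholesterol uptake, transport and efflux, 19 were measured (Cyp27a1 lay under the floor on every array), 0 rose and 1 fell, with 8 positive and 11 negative and a median of -0.18. The gene that fell was Abca1, the transporter that moves cholesterol out of the cell. It read 0.221 and 0.207 in Control and 0.00250 and 0.00360 in Wnt3A, and no Wnt3A array was above the floor, so it was at least 16.6-fold lower in Wnt3A, a bound that shrinks in proportion as the floor is raised. Its limma adjusted p was 0.0279, and the call was lost whichever array was left out. This p-value rests on the spread of Wnt3A values under the floor, so the fall is described by the bound only. Abcg1, a related exporter, was at least 5.10-fold lower by the same bound (limma adjusted p = 0.159, which also rests on Wnt3A values under the floor). Vldlr, a lipoprotein receptor, read 0.0427 and 0.0226 in Control and 0.458 and 0.485 in Wnt3A, a difference of 3.92 ± 0.43 (adjusted p = 0.0632).

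Other marker lists were set beside these values. Osteoblast markers moved with the groups, with 6 of 6 measured and positive and 4 that rose. Their summed relative intensity was 6.75 and 4.87 in Control against 29.8 and 30.4 in Wnt3A. Among those that rose, Alpl and Ibsp had no Control array above the floor. They were at least 181-fold and 79.2-fold higher in Wnt3A, and their limma p-values rest on Control values under the floor. Stromal markers summed to 80.0 and 116.6 in Control against 276.8 and 296.4 in Wnt3A, and 3 collagen probes carried most of the sum: on Wnt3A replicate 1, Col1a1 read 140.1, Col1a2 77.5 and Col3a1 49.2. Of the 10 stromal markers 4 were positive and 6 negative, with a median of -0.08, 1 rose (Nt5e), and Pdgfra at -2.25, Vcam1 at -1.61 and Cxcl12 at -1.44 were lower in Wnt3A without overlap. Macrophage markers (10 of 10 measured) summed to 3.58 and 2.59 in Control and 3.09 and 2.37 in Wnt3A, and 2 of 4 endothelial markers were measured, with Kdr and Tek under the floor on every array. Markers of dividing cells summed to 17.1 and 21.3 in Control and 16.1 and 24.2 in Wnt3A, with 0 of 7 past the threshold. The sterol branch summed to 48.6 and 46.1 in Control and 45.9 and 41.1 in Wnt3A, and the fatty acid branch to 46.6 and 40.7 against 45.6 and 42.7. Bright probes weigh most in such sums, and Scd2 (15.6) and Fads2 (12.8) carried most of the fatty acid sum on Control replicate 1. Level sums can therefore hide changes of dimmer genes in either direction. The part of the marker lists in the members' values was not tested.

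**Figure D4:**
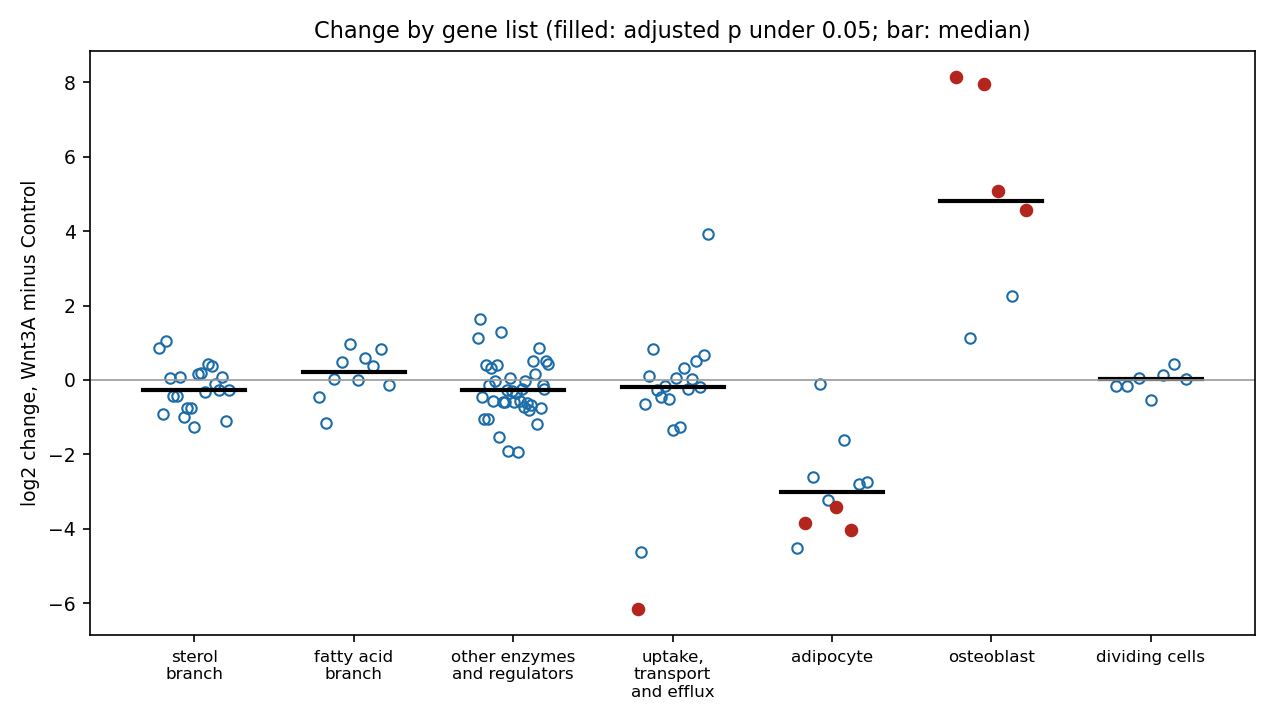
log2 difference (Wnt3A minus Control) of each gene in 7 lists, with filled red points for an adjusted p under 0.05, open points otherwise and a bar for the median. Both branches lie within -1.26 to 1.06 with no filled point, while adipocyte markers have a median of -3.01 and osteoblast markers one of 4.82. The points of Alpl, Ibsp, Abca1 and Abcg1 use values under the floor in 1 group, so their size is not measured.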

How the data were processed

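RNA of 4 samples was hybridised to 1-colour Agilent arrays. The authors' deposited table gives a linear intensity per spot. Its scaling is not given in the sources used here. The scanner files come from Feature Extraction 10.5.1.1, per the file headers, and give spot intensity with flags of other kinds. The table was the main source, a choice made with the values of both known.

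Values were taken to log2 minus each array's 75th percentile. The spots of a probe were averaged (43379 spots, 41174 probes). Probes above a floor on both arrays of a group were kept (33709). The floor was 4.94 times the 1st percentile of the array, from the scanner files' flags, or 0.0702 and 0.0631 in Control and 0.0533 and 0.0729 in Wnt3A on the scale of the table. All kept probes were tested with limma 3.58.1 under R 4.3.3 (functions lmFit and eBayes, 2 residual degrees of freedom), with Benjamini-Hochberg adjustment and a threshold of 0.05. A gene is its kept probe with the highest mean. The code was tested on simulated data.

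A gene with no array of a group above the floor is compared with the floor and given as "at least". Names came from RefSeq through accession (24375 probes), symbol (6301) or older symbol (2426), and 8072 kept the name in the file. Positions are mm8 as the array annotation gives them, which does not name exons or UTRs. All members were named, and in each of the other pathway lists those past the threshold and the 3 with the smallest p. Nsdhl and Pmvk probes were singled out after their values were seen. Members and lists were chosen with earlier results of these data known. Alternatives covered scaling, the floor, the probe rule, moderation, the replicate block, each array left out, and the scanner values.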

Additional observations from a re-analysis of the deposited data

How the results depend on the processing

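Of the 31 members, 18 kept 1 direction in all 12 alternatives made from the table and 13 reversed in at least 1. No member passed the threshold in any alternative, and the smallest adjusted p was 0.106. With each array left out in turn, the log2 changes ran from -0.71 to 1.68 for Elovl6, -0.34 to 0.0527 for Scd2, -0.17 to 0.16 for Fads2, -0.39 to 0.17 for Scap, -0.0806 to 0.16 for Fdft1, -0.12 to 0.25 for Hsd17b7, -0.20 to 0.23 for Elovl5, -0.35 to 0.48 for Srebf2, -1.24 to 0.33 for Acaca, -1.13 to 0.49 for Nsdhl, -0.75 to 0.20 for Tm7sf2, the sterol median from -0.28 to -0.0452 and the fatty acid median from 0.13 to 0.25. Sterol genes without overlap then numbered 6 to 9 higher and 7 to 9 lower, and fatty acid genes 4 to 6 higher and 2 to 3 lower, since fewer arrays overlap less. In the same fits 32.3% to 38.3% of all genes were higher and 35.4% to 42.6% lower without overlap. The uptake list held 0 calls. Over all genes these fits called 0 genes (limma, 2281 to 2822 at an unadjusted p under 0.05), against 147 with all arrays. The replicate block called 0 (2737 unadjusted), and Abca1 then had an adjusted p of 0.0978, leaving 0 calls in the uptake list. Deviations of same-numbered arrays correlated at 0.0124 over 33709 probes, so no deviation shared by number was seen. With 2 arrays a group this cannot exclude that same-numbered samples were prepared together. The mean of the probes gave Sc5d -0.0356, Pmvk -0.10, Srebf2 -0.12, a fatty acid median of 0.25, 2 fatty acid genes lower, and 2 sterol genes higher and 8 lower without overlap. Of all genes 22.0% were higher and 23.8% lower without overlap in that setting. The fatty acid median was 0.19 with median scaling and 0.22 with quantile scaling, where Fads2 was 0.0582. No filter called 35 genes over all, a floor on all 4 arrays 34 (0 in the uptake list), the mean of the probes 226, and trend and robust settings 233, with 1 call among other enzymes (G6pdx, adjusted p 0.0242). A floor 2 times as high called 202, with 2 in the uptake list (Vldlr, adjusted p 0.0485).

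The scanner values called 2 genes (507 unadjusted), 0 with normexp (266) and 0 without Control replicate 1 (522), and 0 in the uptake list each time; the cause was not tested. They reversed Srebf2 -0.21, Cyp51 -0.32, Acacb -0.67, Fdft1 -0.88, Fasn -0.92, Hsd17b7 -1.01, Ebp -1.08, Me1 -1.41, Elovl5 -1.45, Acly 0.32, Tm7sf2 0.32 and Nsdhl 0.51. The SE was 1.42 alike for Cyp51, Ebp, Fdft1, Hsd17b7, Tm7sf2 and Nsdhl, wider than the scanner change of each. The fatty acid median was -0.32, with 0 fatty acid genes higher, and 1 sterol gene higher and 2 lower without overlap. Of all genes 9.94% were then higher and 9.31% lower without overlap. Medians over all genes were -0.12 for the scanner values, -0.28 with normexp and 0.02 without Control replicate 1. With normexp the reversed values were Sc5d -0.0011, Acacb -0.30, Ebp -0.59, Vldlr -0.62, Fasn -0.70, Hsd17b7 -0.72, Elovl5 -0.80, Fdft1 -0.85, Scd1 -0.90, Cyp51 -1.38, Me1 -1.62, Fads2 0.0754 and Acly 0.52, with medians of -0.47 (sterol) and -0.64 (fatty acid). Without overlap, fatty acid genes were 0 higher and 1 lower, and sterol genes 2 higher and 7 lower. Of all genes 7.77% were higher and 12.3% lower without overlap with normexp. Without Control replicate 1, the faintest scanner file (41.8% of spots well above background against 71.6% to 85.7%), the reversed values were Sc5d -0.24, Ebp -0.25, Hsd17b7 -0.27, Vldlr -0.64, Fads1 -0.78, Me1 -1.12, Srebf2 -1.16, Fasn -1.33, Fdft1 -2.22, Cyp51 -2.29 and Elovl5 -2.83, with medians of -1.01 (sterol) and -0.64 (fatty acid). Without overlap, fatty acid genes were 2 higher and 2 lower, and sterol genes 3 higher and 9 lower. Of all genes 23.9% were higher and 24.2% lower without overlap in this fit.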
